A study of Mus musculus with 60 samples.

Results

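The sarcomeric myosin heavy chains are the motor proteins of the thick filaments of striated muscle, and they were described here through 7 genes, Myh1, Myh2, Myh3, Myh4, Myh6, Myh7 and Myh8, of the 18193 genes that the arrays name singly. Every probe set whose platform symbol holds one of these genes was taken, which gave 13 probe sets, 12 on the A chip and 1 on the B chip of the Affymetrix MOE430 set. Of these, 11 name 1 gene and 2 name Myh7 together with Myh6, so that these 2 genes cannot be separated there. MSTN-null C57BL/6J mice, which lack myostatin, a secreted inhibitor of muscle growth, were compared with wild-type mice in entire embryos of 13.5 d.p.c., in embryo hindquarters at 17.5 d.p.c. and in pectoralis muscle at d35 (35 days of age). There were 5 MSTN-null and 5 wild-type pools at each time point, each of RNA from 3 animals, so p-values measure the spread between such pools, and no other agent or allele is named for either genotype. Values are the authors' log2 intensities after RMA, and a difference is MSTN-null minus wild-type, so a positive one means a higher level in MSTN-null, the opposite direction to the WT/null ratios of the study. Calls were made where the Storey q (an estimate of the share of false calls) was under 0.05 in limma, fitted to 45037 probe sets at each time point, and n is 5 pools per genotype throughout, with SD for the spread over pools.

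A muscle fibre's speed of contraction follows the heavy chain it contains. In rodents, Myh3 encodes the embryonic and Myh8 the perinatal chain, which developing fibres use and adult limb and trunk muscles largely give up, Myh7 the slow chain of type I fibres and of the heart ventricle, and Myh2, Myh1 and Myh4 the fast chains of type IIa, IIx and IIb fibres. Myh6 encodes the alpha chain of heart muscle. In the mouse reference annotation Myh3, Myh2, Myh1, Myh4 and Myh8 follow each other on chromosome 11, with the long non-coding RNA Myhas between Myh1 and Myh4, and Myh6 and Myh7 are neighbors on chromosome 14. The windows before and around the transcription starts (RefSeq, GRCm38.p6, 300 bases, of which 50 follow the start) are shown for the 4 fast and perinatal genes because they share a word that the rule for choosing the genes did not use, and for Myh7 because it had the largest genotype difference. Capitals mark that word, TTCTAATTATATCC, the longest run of bases (14) common to the 4 windows, and Myh7 has none.
Myh2, chr11:67170777-67171076, plus strand: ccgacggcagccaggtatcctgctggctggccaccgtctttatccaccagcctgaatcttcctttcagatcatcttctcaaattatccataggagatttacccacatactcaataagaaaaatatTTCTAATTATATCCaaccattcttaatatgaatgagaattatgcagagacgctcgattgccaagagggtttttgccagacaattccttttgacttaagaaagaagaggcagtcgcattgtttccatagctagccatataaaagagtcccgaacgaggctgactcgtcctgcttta
Myh1, chr11:67199852-67200151, plus strand: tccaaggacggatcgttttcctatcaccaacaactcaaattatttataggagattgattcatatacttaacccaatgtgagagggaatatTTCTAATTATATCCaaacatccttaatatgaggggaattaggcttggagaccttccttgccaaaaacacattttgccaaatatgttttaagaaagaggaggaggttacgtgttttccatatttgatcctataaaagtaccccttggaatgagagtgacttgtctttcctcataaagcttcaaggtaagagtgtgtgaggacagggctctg
Myh4, chr11:67237562-67237861, plus strand: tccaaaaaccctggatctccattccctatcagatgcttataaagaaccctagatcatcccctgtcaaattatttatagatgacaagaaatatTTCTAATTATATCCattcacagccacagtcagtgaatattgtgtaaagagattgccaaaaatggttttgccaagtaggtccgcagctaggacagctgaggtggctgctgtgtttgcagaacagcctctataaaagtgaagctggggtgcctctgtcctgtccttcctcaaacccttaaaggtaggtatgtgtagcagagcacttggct
Myh8, chr11:67276874-67277173, plus strand: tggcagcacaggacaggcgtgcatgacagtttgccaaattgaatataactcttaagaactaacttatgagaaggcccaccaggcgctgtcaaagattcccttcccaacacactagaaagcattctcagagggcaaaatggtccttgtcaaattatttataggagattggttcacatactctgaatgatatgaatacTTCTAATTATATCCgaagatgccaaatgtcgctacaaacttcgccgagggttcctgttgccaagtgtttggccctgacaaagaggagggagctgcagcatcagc
Myh7, chr14:54994500-54994799, minus strand, the downstream one of 2 windows listed: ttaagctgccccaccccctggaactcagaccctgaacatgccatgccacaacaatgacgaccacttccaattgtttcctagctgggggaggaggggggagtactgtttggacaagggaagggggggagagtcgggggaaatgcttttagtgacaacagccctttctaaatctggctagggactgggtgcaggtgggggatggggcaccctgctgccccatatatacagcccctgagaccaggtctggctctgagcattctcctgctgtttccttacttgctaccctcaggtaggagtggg
The word began 125, 160, 158 and 54 bases before the start of Myh2, Myh1, Myh4 and Myh8. No other window among 32817 of this length held it on either strand, so 4 windows (0.0122%) did. Since the word was picked as common to these 4 windows, its presence in them was fixed by that choice and its share is no test. The letters TATAAA of the TATA box, searched on both strands, were in the windows of all 7 genes except Myh7 and in 13.6% of all windows. Only these exact letters were counted, at any place in the window, so a run such as atatata in the Myh7 window was not. A MEF2 site, the A and T rich motif of a family of muscle transcription factors, was in those of Myh1, Myh4 and Myh8 and in 3.19% of all. In each of the 3 it overlapped 1 TATAAA match, and in Myh8 that was the only TATAAA match, on the strand opposite to the gene. These matches describe letters only. The 4 genes that share the word did not move the same way at d35, where Myh2 was lower and Myh8 higher in MSTN-null.

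The heavy chains changed places within the arrays between the time points. Because the arrays of each time point lie on their own scale and the tissues differ, a level is given here as the percentile of the probe set among those of its chip on the same array, and since probe sets bind with different strength, no order is read between genes. Myh3 stood at the 89.4 to 92.2 percentile in MSTN-null and the 89.5 to 91.1 percentile in wild-type whole embryos. It stood at 99.0 to 99.48 in MSTN-null and 98.95 to 99.45 in wild-type hindquarters, and in pectoralis muscle at 17.5 to 21.4 in MSTN-null and 19.1 to 20.6 in wild-type. Thus the embryonic chain was highest in hindquarters and lowest in pectoralis, with genotypes that overlapped in each tissue. Myh8 was also highest in hindquarters, at 38.95 to 53.7 in MSTN-null and 37.0 to 45.1 in wild-type embryos, 98.5 to 99.3 and 98.5 to 99.2 in hindquarters, and 32.8 to 39.2 and 22.0 to 31.7 in pectoralis.

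The adult fast chains stood higher in hindquarters than in embryos, as Myh3 and Myh8 did, and unlike these were highest in pectoralis. Myh2 stood at 6.03 to 7.72 in MSTN-null and 5.45 to 7.28 in wild-type embryos, at 25.9 to 33.0 and 28.3 to 45.2 in hindquarters, and at 99.0 to 99.4 and 99.7 to 99.8 in pectoralis. Myh1 (its _x probe set) stood at 8.92 to 11.1 in MSTN-null and 6.77 to 8.98 in wild-type embryos, at 37.5 to 67.3 and 25.0 to 73.7 in hindquarters, and at 99.77 to 99.80 and 99.84 to 99.85 in pectoralis. Myh4 (A chip) stood at 2.47 to 3.94, 12.7 to 21.8 and 99.9 in MSTN-null and at 2.94 to 5.17, 8.63 to 14.0 and 99.9 in wild-type over the same 3 tissues. In hindquarters these 3 genes overlapped between genotypes. Myh7 stood at 86.4 to 87.9 in MSTN-null and 85.5 to 86.6 in wild-type embryos, at 89.9 to 94.8 and 92.3 to 96.9 in hindquarters, and at 67.3 to 87.5 and 96.4 to 97.4 in pectoralis. Ordered by mean percentile, Myh7 was highest in wild-type pectoralis and lowest in MSTN-null pectoralis, with hindquarters and embryos of both genotypes in between. Its range in MSTN-null pectoralis reached into that of the embryos, and its range in wild-type pectoralis reached into that of wild-type hindquarters.

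**Figure D1:**
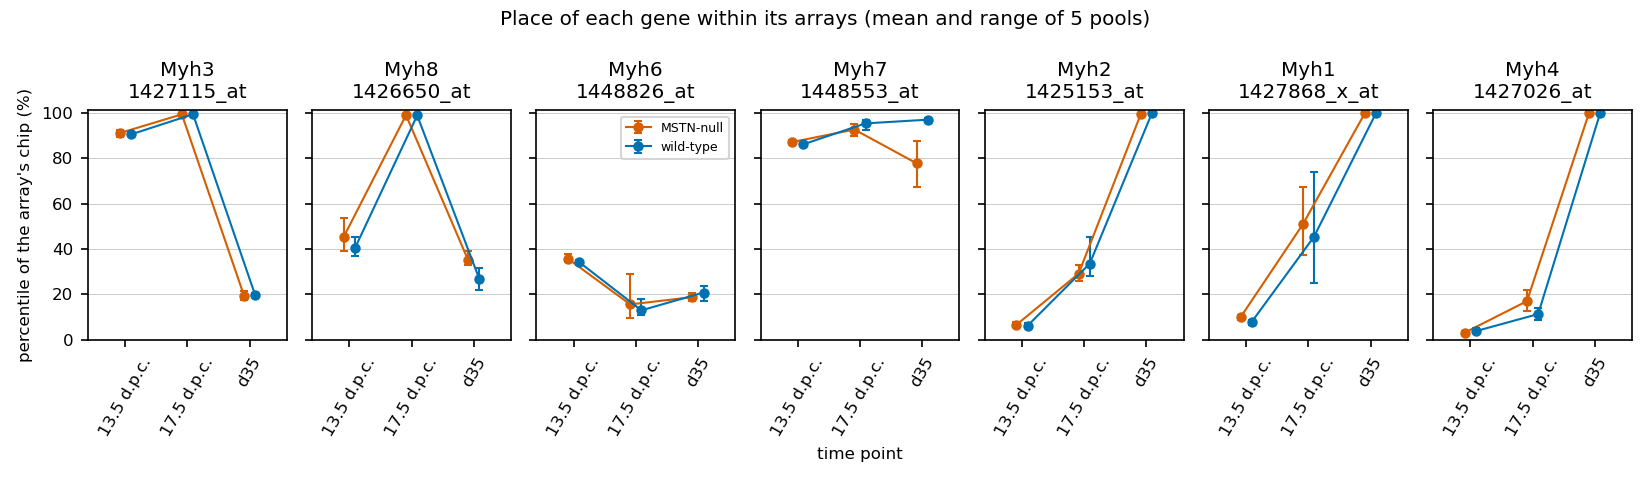
Percentile of 1 probe set of each gene among the probe sets of its chip on the same array (vertical axis, %) at each time point, as the mean and the range of 5 MSTN-null (orange) and 5 wild-type (blue) pools. Myh3 and Myh8 peak in hindquarters, Myh2, Myh1 and Myh4 reach above 99 in pectoralis muscle, and the genotypes of Myh7 part at d35, with 67.3 to 87.5 in MSTN-null and 96.4 to 97.4 in wild-type.

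In whole embryos of 13.5 d.p.c., 1 of the 13 probe sets was called, against 243 of all 45037 (0.540%), with 12 of all (0.0266%) higher and 231 (0.513%) lower in MSTN-null. It was the _x probe set of Myh1, at 5.73, 5.48, 5.68, 5.49 and 5.63 in the MSTN-null pools and 5.30, 5.24, 5.45, 5.36 and 5.36 in the wild-type pools. The genotypes did not overlap, and the level was dim, at the 8.92 to 11.1 percentile in MSTN-null. The difference was 0.26 on the log2 scale (standard error 0.056; 1.20-fold; limma, q = 0.0476). The other Myh1 probe sets differed by 0.18 (q = 0.170) and 0.17 (q = 0.145) and were not called. Its _x suffix marks probes that can also bind related genes, and the call was lost in 13 of 17 alternatives. Among them were all that left out 1 pool except MSTN-null pool 2, where q reached 0.152, and a single fit of all pools, where q was higher still. The genotypes did not overlap at 2 of the 13 probe sets, against 1079 of all (2.40%).

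Among the genes that embryos of this age expressed at a higher level, Myh3 was at 10.5 (SD 0.153) in MSTN-null and 10.4 (SD 0.0795) in wild-type, a difference of 0.05 (q = 0.608). Myh7 was at 10.1 (SD 0.0565) and 10.0 (SD 0.0392), a difference of 0.06 (q = 0.469). Myh8 was at 7.97, 7.54, 8.22, 7.61 and 7.92 in MSTN-null pools and at 7.41, 7.61, 7.69, 7.49 and 7.82 in wild-type pools, which overlapped, with a difference of 0.25 (standard error 0.11, q = 0.308). Whole embryos contain the heart, where Myh6 and Myh7 are also used, and the cardiac markers, among them the natriuretic peptide Nppa and the cardiac troponin Tnni3, had 0 of 10 called, with mean levels of 8.01 to 8.11 in MSTN-null and 7.99 to 8.06 in wild-type pools. The difference between the 3' and 5' probe sets of the actin control was 0.20 to 0.35 in MSTN-null and 0.07 to 0.21 in wild-type pools on the A chip (exact permutation test, two-sided, p = 0.016). On the B chip it was 0.29 to 0.32 in MSTN-null and 0.16 to 0.23 in wild-type pools, without overlap (exact permutation p = 0.0079, the smallest that 5 against 5 pools can give), and its part in these values was not tested. That of the Gapdh control overlapped between genotypes (exact permutation p = 0.26 on the A chip and 0.14 on the B chip).

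In hindquarters of 17.5 d.p.c., none of the 13 probe sets was called, as 0 of all were (0%; limma, also 0 with the Benjamini-Hochberg adjustment and 0 with limma's trend and robust options). At an unadjusted p under 0.05 there were 4 of the 13 and 1093 of all (2.43%). 3 of the 4 were the probe sets of Myh7 and of Myh7 with Myh6. Myh7 was at 10.31, 10.28, 10.94, 10.59 and 10.88 in the MSTN-null pools and at 10.61, 10.94, 11.51, 11.13 and 11.32 in the wild-type pools, overlapping in range. The difference was -0.50 (95% confidence interval -0.90 to -0.11; unadjusted p = 0.0178), and those of the 2 shared probe sets were -0.42 (unadjusted p = 0.0336) and -0.37 (unadjusted p = 0.0209). The fourth was Myh4, at 5.89, 5.85, 6.35, 6.23 and 6.49 in MSTN-null and 5.51, 5.89, 5.98, 5.72 and 5.82 in wild-type, a difference of 0.38 (unadjusted p = 0.0164), and its B chip probe set differed by 0.17 (unadjusted p = 0.0791). At neither gene did the genotypes separate, and the genotypes did not overlap at 0 of the 13 probe sets and 241 of all (0.535%).

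The other chains of the hindquarters were close between genotypes or varied more between pools than between genotypes. Myh3 was at 12.97 (SD 0.207) in MSTN-null and 13.02 (SD 0.202) in wild-type, and Myh8 at 12.7 (SD 0.298) and 12.6 (SD 0.284). Myh2 was at 6.73, 6.74, 6.93, 6.73 and 7.05 in MSTN-null and at 6.82, 6.81, 7.62, 6.90 and 7.16 in wild-type pools, a difference of -0.23 (standard error 0.15). Myh1 (_x probe set) ranged from 7.22 to 8.68 in MSTN-null and from 6.59 to 9.03 in wild-type pools, and the confidence interval of its difference, -0.67 to 1.13, is the widest of the 13. Pool 3 had the highest Myh1 (on this probe set), Myh8 and Myh3 values of either genotype. MSTN-null pool 5 stood apart in its liver markers, averaging 8.48 where MSTN-null pools 1 to 4 averaged 11.45 to 12.19 and wild-type 11.34 to 12.78, and without it the difference of Myh7 was -0.57. The part of the liver markers in the other values was not tested. The B chip array of wild-type pool 1 correlated least with the others of its time point (median r = 0.951), and without it the B chip probe set of Myh4 differed by 0.22. The 3' minus 5' difference of the Gapdh control on the B chip was -0.0795 to -0.005 in MSTN-null and -0.0011 to 0.0353 in wild-type pools, without overlap (exact permutation p = 0.0079), that of actin overlapped (exact permutation p = 0.44), and their part in the B chip value was not tested.

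**Figure D2:**
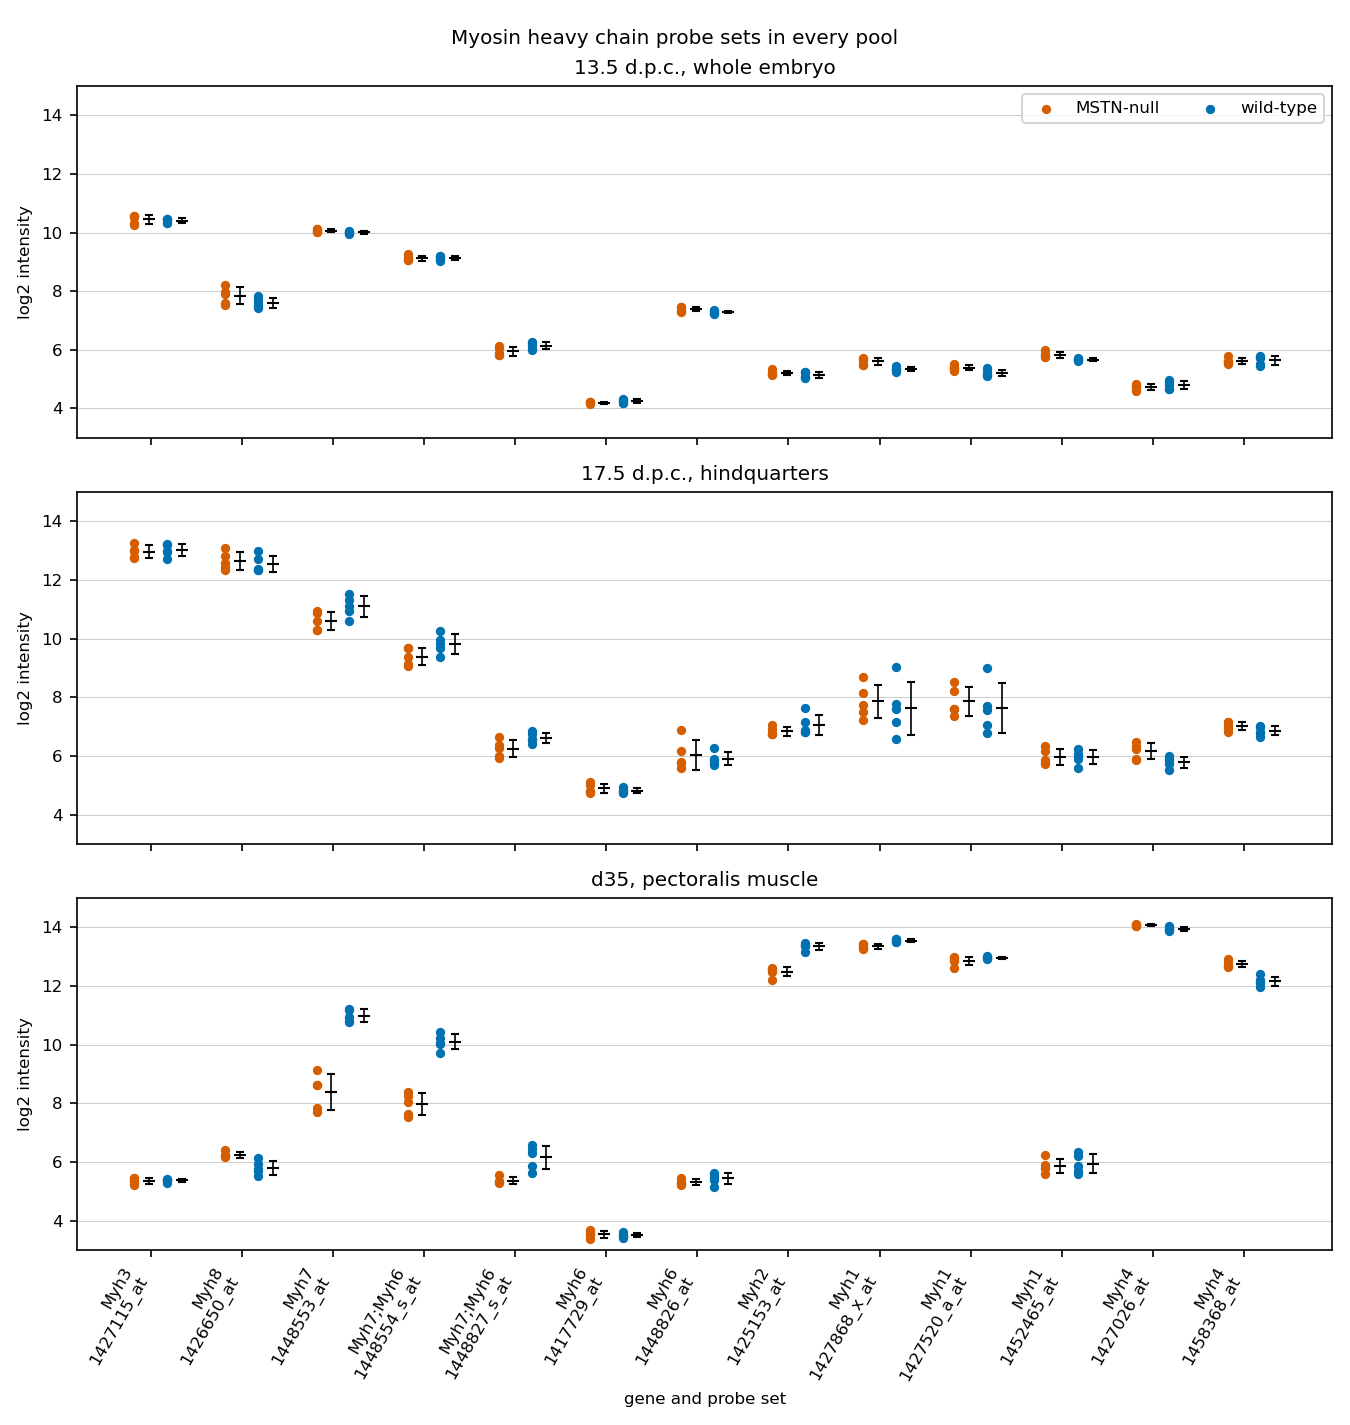
Log2 intensity (vertical axis) of each of the 13 myosin heavy chain probe sets (horizontal axis) in every MSTN-null (orange) and wild-type (blue) pool at the 3 time points, with the mean and SD of 5 pools in black. At d35 the MSTN-null pools of Myh7 lie at 7.70 to 9.14 and the wild-type pools at 10.79 to 11.22, while most other probe sets lie close between genotypes.

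In pectoralis muscle at d35, 7 of the 13 probe sets, naming 6 of the 7 genes (Myh6 only together with Myh7), were called, against 2062 of all (4.58%). They were 5 lower in MSTN-null, where 2.50% of all were called lower, and 2 higher, where 2.08% of all were. The genotypes did not overlap at 8 of the 13 probe sets, against 2364 of all (5.25%). The median difference of the 13 was -0.11, and that of all probe sets was 0.014. In these bulk pools, fewer fibres of a type and less RNA per fibre cannot be told apart. The difference between the 3' and 5' probe sets of the actin control was 0.06 to 0.21 in MSTN-null and 0.13 to 0.58 in wild-type pools on the A chip (exact permutation test, two-sided, p = 0.087). On the B chip it was 0.16 to 0.28 in MSTN-null and 0.21 to 0.58 in wild-type pools (exact permutation p = 0.087). That of the Gapdh control overlapped between genotypes (exact permutation p = 0.66 on the A chip and 0.14 on the B chip). The part of these controls in the values was not tested.

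Myh7, the slow chain, was the member with the largest difference. It was at 8.63, 7.70, 9.14, 7.83 and 8.63 in the MSTN-null pools and at 10.81, 10.79, 10.96, 11.20 and 11.22 in the wild-type pools. Every MSTN-null pool lay below every wild-type pool, and the MSTN-null pools were also more spread (SD 0.603, against 0.206 in wild-type), with pools 2 and 4 lowest. The difference was -2.61 (standard error 0.22, 95% confidence interval -3.09 to -2.13; limma, q = 5.43e-05), a level in wild-type 6.11 times that in MSTN-null. Without any 1 pool it stayed between -2.80 and -2.44.

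Both probe sets that bind Myh7 and Myh6 were lower as well, while the 2 that name Myh6 alone were not called. The brighter shared probe set was at 8.26, 7.52, 8.40, 7.63 and 8.06 in MSTN-null and 10.04, 9.73, 10.05, 10.24 and 10.43 in wild-type, a difference of -2.12 (standard error 0.17, q = 2.06e-05). The dimmer one was at 5.32, 5.28, 5.56, 5.36 and 5.30 in MSTN-null and 6.43, 5.63, 5.87, 6.30 and 6.57 in wild-type, a difference of -0.79 (standard error 0.15, q = 0.00852). Both were without overlap between genotypes, and in the brighter one the lowest MSTN-null pools were again 2 and 4. Of the Myh6 probe sets, the dimmer was at 3.54 in MSTN-null and 3.50 in wild-type (q = 0.491), no higher than the 2.15 percentile of the chip in any pool. The other was at 5.31 (SD 0.0929) and 5.44 (SD 0.193), a difference of -0.12 (q = 0.304). The cardiac markers had 0 of 10 called at d35, with 9 differences positive and 1 negative. Nppa differed by 0.01, Tbx20 by 0.11 (q = 0.156) and Tnni3, the negative one, by -0.16 (q = 0.135).

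The fast chains differed by less and in different directions. Myh2, of type IIa fibres, was at 12.59, 12.55, 12.49, 12.22 and 12.62 in MSTN-null and at 13.40, 13.17, 13.35, 13.39 and 13.48 in wild-type pools, without overlap. It was lower by -0.86 (standard error 0.08, 95% confidence interval -1.03 to -0.69; q = 7.93e-05), with wild-type at 1.82 times the MSTN-null level, and was called under each of 20 alternatives.

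Myh1, of type IIx fibres, gave 3 readings. The _x probe set was at 13.44, 13.42, 13.26, 13.29 and 13.34 in MSTN-null and 13.60, 13.51, 13.55, 13.59 and 13.52 in wild-type, a difference of -0.20 (standard error 0.049, q = 0.0272). The genotypes did not overlap, yet the call was lost without MSTN-null pool 3 (q = 0.0717) or 4 (q = 0.0592) and without wild-type pool 1 (q = 0.0562) or 3 (q = 0.0779). It was also lost without wild-type pools 2 and 3 together (q = 0.102), with the replicate block (q = 0.0564) and in a single fit of all pools (q = 0.588). That fit uses 1 estimate of spread for all time points. The SD of this probe set in MSTN-null and wild-type was 0.574 and 0.903 at 17.5 d.p.c., and 0.0776 and 0.0407 at d35. The _a probe set, at 12.86 (SD 0.142) in MSTN-null and 12.97 (SD 0.0388) in wild-type, overlapped between genotypes and was not called (-0.11, q = 0.262). The third stood at the 22.5 to 35.6 percentile in MSTN-null and 23.5 to 37.3 in wild-type pools, where the other 2 stood above 99 in every pool, and was not called (-0.08, q = 0.533). The 3 probe sets named Myh1 thus had negative differences at d35, while only 1 passed the test, and they did not share a course with age.

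Myh4, of type IIb fibres, was read by a probe set on each chip. The A chip probe set was at 14.08, 14.13, 14.06, 14.05 and 14.08 in MSTN-null and 13.96, 13.87, 13.92, 14.04 and 13.97 in wild-type, a difference of 0.13 (standard error 0.046) that was not called (q = 0.0992). These values lay at the 99.9 percentile of the chip, where the highest value of any probe set at d35 was 14.8. The B chip probe set was at 12.66, 12.68, 12.67, 12.83 and 12.91 in MSTN-null and 12.40, 12.10, 11.97, 12.16 and 12.21 in wild-type. Its MSTN-null pools all lay above its wild-type pools, by 0.58 on average (standard error 0.078, 95% confidence interval 0.41 to 0.75; q = 0.00126). The 2 probe sets differed in the size of the difference and not in its sign. The study lists the A chip probe set of Myh4 at d35 with a q-value that passes its threshold. In the fit used here it was not called, and the reason for this was not tested.

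Myhas, the long non-coding RNA beside Myh4, is no heavy chain and was looked up after the values of its neighbors were seen. Its probe set was at 8.93, 9.06, 9.31, 9.47 and 9.83 in MSTN-null and 8.61, 8.81, 8.63, 8.95 and 8.79 in wild-type pools at d35, a difference of 0.57 (standard error 0.14; 1.48-fold; q = 0.0284). The ranges overlapped, since the lowest MSTN-null pool (8.93) lay below the highest wild-type pool (8.95). The call was lost without MSTN-null pool 3 (q = 0.0634) or 4 (q = 0.0624) and without wild-type pool 1 (q = 0.0590) or 3 (q = 0.0911), and without wild-type pools 2 and 3 together (q = 0.131).

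Of the developmental chains, Myh8 was higher in MSTN-null pectoralis and Myh3 was not called. Myh8 was at 6.17, 6.20, 6.19, 6.25 and 6.41 in MSTN-null and 5.75, 5.69, 5.51, 6.12 and 5.93 in wild-type pools. The groups did not overlap, with the lowest MSTN-null pool at 6.17 and the highest wild-type pool at 6.12, and the mean difference was 0.44 (standard error 0.096; 1.36-fold; q = 0.0168). Its level was low in both genotypes, between the 22.0 and 39.2 percentile. Without wild-type pools 2 and 3 together the difference was 0.31 and the call was lost (q = 0.0930), as it was in a single fit of all pools (q = 0.0539). Myh3 was at 5.36 (SD 0.100) in MSTN-null and 5.37 (SD 0.0536) in wild-type, a difference of -0.01 (95% confidence interval -0.13 to 0.11; q = 0.616).

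**Figure D3:**
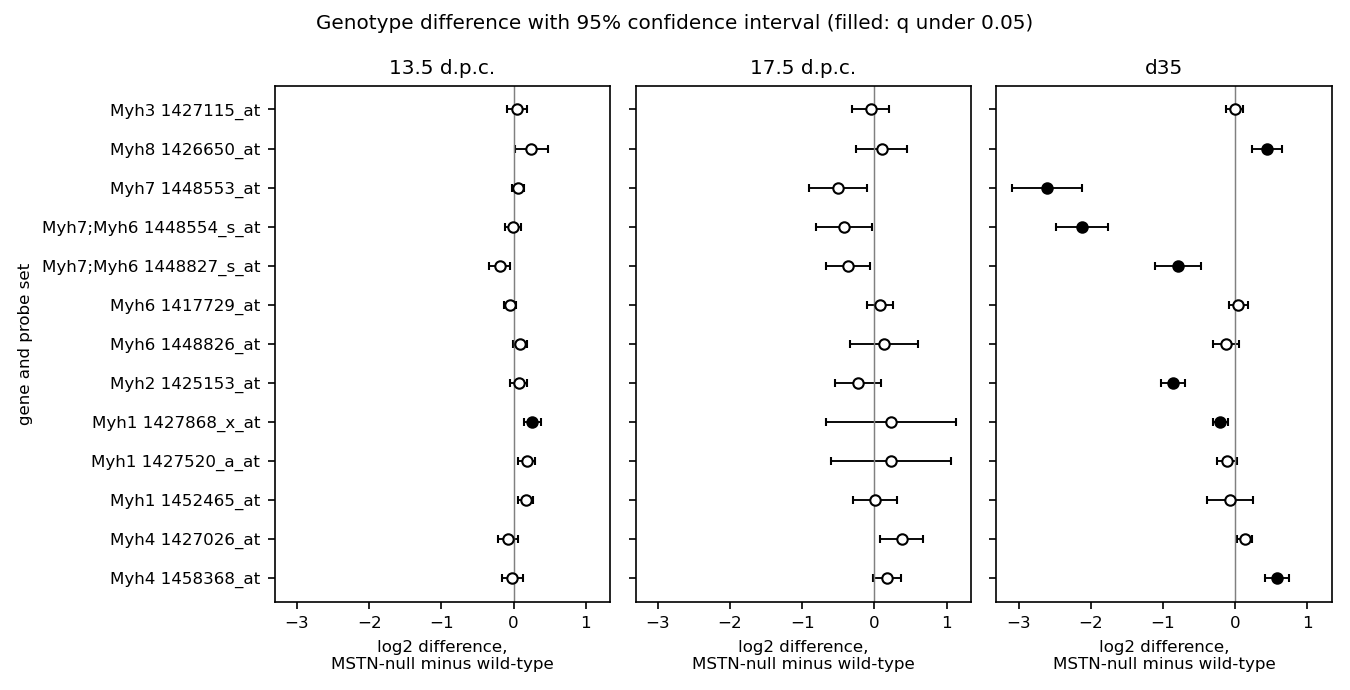
Difference of MSTN-null minus wild-type on the log2 scale (horizontal axis) with its 95% confidence interval for each of the 13 probe sets at the 3 time points, filled where q was under 0.05. At d35 Myh7 lies at -2.61 and the B chip probe set of Myh4 at 0.58, and at 17.5 d.p.c. no point is filled.

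Whether a genotype difference itself changed between time points was tested in a limma fit of all 30 pools. From 17.5 d.p.c. to d35 the difference of Myh7 moved by -2.11 (standard error 0.27, q = 2.16e-05), that of the brighter shared probe set by -1.70 (q = 3.51e-05) and that of Myh2 by -0.64 (standard error 0.15, q = 0.0355), which makes 3 of 13 called against 322 of all (0.715%). From 13.5 d.p.c. to d35 the same 3 were called, Myh7 by -2.67 (q = 2.34e-07), the shared probe set by -2.12 (q = 6.00e-07) and Myh2 by -0.93 (q = 9.18e-04), together with the B chip probe set of Myh4 by 0.60 (q = 0.00703), and 526 of all (1.17%) were. The tissue also differs between the time points, and time point and tissue cannot be told apart. Between embryos and hindquarters none of the 13 was called, as 0 of all were (0%), with Myh7 at -0.56 (unadjusted p = 0.0448) and Myh4 (A chip) at 0.46 (unadjusted p = 0.00194). For Myh8 the movement to d35 was 0.34 (q = 0.364) from 17.5 d.p.c. and 0.19 (q = 0.635) from 13.5 d.p.c., so its difference at d35 was not shown to differ from those before birth. The movement of Myh4 from 17.5 d.p.c. was 0.41 (q = 0.0893) on the B chip and -0.25 (q = 0.338) on the A chip.

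The balance of 2 chains was taken within each pool as the difference of their brightest probe sets, which removes what a pool's chains share. It is a description of the genotypes side by side, with no test, and since the brightest probe set of Myh1 and of Myh4 was not the same one at each time point, it is not set against another age. At d35, Myh7 minus Myh2 was -3.96, -4.84, -3.36, -4.38 and -3.99 in the MSTN-null pools and -2.59, -2.38, -2.38, -2.19 and -2.26 in the wild-type pools. The slow chain was thus lower against the IIa chain in every MSTN-null pool, by a further -1.75 on average. Myh2 minus Myh1 was -0.85, -0.87, -0.77, -1.07 and -0.72 in MSTN-null and -0.20, -0.34, -0.20, -0.20 and -0.04 in wild-type, a shift of -0.66. Myh1 minus Myh4 was -0.64, -0.72, -0.80, -0.77 and -0.74 in MSTN-null and -0.36, -0.35, -0.37, -0.46 and -0.45 in wild-type, a shift of -0.33. All 3 steps along the order of slow, IIa, IIx and IIb shifted toward the faster chain in MSTN-null, and none of the 3 overlapped between genotypes. The steps are subtractions of the values given above and neighboring steps share a gene, so they are not 3 further observations. The last step rests on the _x probe set of Myh1 and the A chip probe set of Myh4, which was not called (limma, q = 0.0992). How often other pairs of genes do not overlap was not computed. Myh3 minus Myh8 shifted by -0.45, with -1.04 to -0.75 in MSTN-null and -0.74 to -0.11 in wild-type pools, which left the groups barely apart. In embryos and hindquarters all 4 balances overlapped between genotypes, with shifts of -0.01 and -0.28 for Myh7 minus Myh2, -0.09 and -0.46 for Myh2 minus Myh1, 0.19 and 0.06 for Myh1 minus Myh4, and -0.20 and -0.15 for Myh3 minus Myh8.

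**Figure D4:**
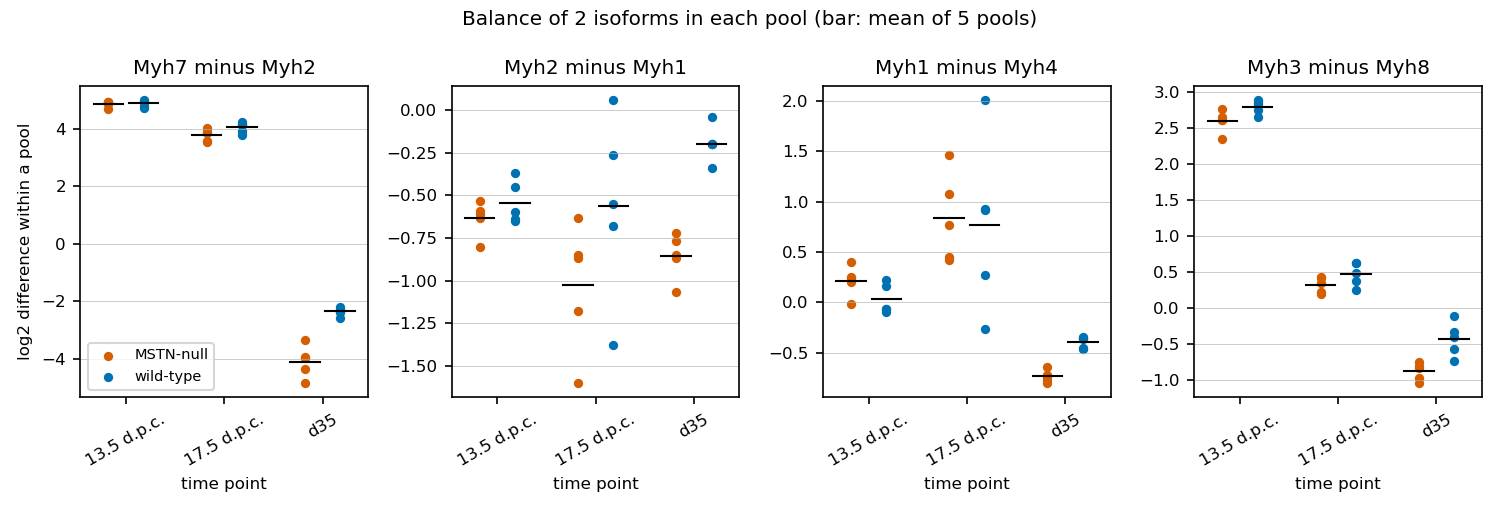
Difference between 2 chains within each pool on the log2 scale (vertical axis) at the 3 time points, for MSTN-null (orange) and wild-type (blue) pools, with a bar at the mean of 5 pools. At d35 the genotypes do not overlap in any of the 4 panels, with shifts of -1.75, -0.66, -0.33 and -0.45, and at the embryonic time points they overlap in all.

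The heavy chains work with light chains, troponins and pumps that have slow and fast forms of their own. Of 12 slow fibre partners measured at d35, 9 were lower in MSTN-null, 0 were higher and 3 were not called, with a median difference of -1.55. Over all probe sets at d35, 2.50% were called lower and 2.08% higher, and these shares stand beside each list below. With 1 probe set per gene, 1348 of 18193 were called. Tnnt1, the slow troponin T, was at 8.09 (SD 0.425) in MSTN-null and 10.6 (SD 0.294) in wild-type, a difference of -2.46 (q = 1.65e-05). Myl2, the slow regulatory light chain, differed by -2.34 (q = 9.24e-05), Tnnc1, the slow troponin C, by -2.30 (q = 6.11e-05) and Tnni1, the slow troponin I, by -2.10 (q = 6.11e-05). These 4 differences and that of Myh7 lay between -2.61 and -2.10. The tropomyosin Tpm3 was not called on its brightest probe set (-0.44, q = 0.181). The study lists another Tpm3 probe set among its most significant genes at d35, higher in wild-type, so the count of 9 holds for the brightest probe sets only. The mean level of the 12 partners was 9.40, 9.20, 9.59, 9.13 and 9.32 in MSTN-null pools 1 to 5, where pools 2 and 4, the lowest in Myh7, were lowest too, and 10.49 to 10.82 in wild-type pools. Before birth none of the 12 was called, and the median differences were -0.00 and -0.01. In hindquarters, where Myh7 differed by -0.50, 6 of the 12 differences were positive and 6 negative. The slow troponins Tnnt1, Tnni1 and Tnnc1 differed by -0.07, 0.06 and -0.04. The light chains Myl2 and Myl3 differed by -0.23 and -0.27, and Casq2 and Mybpc1 by 0.23 and 0.20.

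Of 12 fast fibre partners at d35, 4 were higher in MSTN-null, 0 were lower and 8 were not called, with a median difference of 0.12. Those called were Myoz1, a Z-disc protein (0.27, q = 0.0101), Mybpc2, the fast myosin-binding protein C (0.23, q = 0.0140), Casq1, the calcium store protein of fast fibres (0.23, q = 0.0407) and Actn3, an actinin restricted to fast fibres (0.20, q = 0.0166). Mylpf, a fast light chain, was not called (0.12, q = 0.107). The study lists the same Mylpf probe set at d35 with a q-value that passes its threshold. The count of fast partners called thus holds for the fit used here only. The 12 averaged 14.1 to 14.2 in MSTN-null and 14.0 to 14.1 in wild-type pools, near the top of the scale. A further quantile normalization took the difference of Mybpc2 to 0 (q = 0.660) and that of Actn3 to 0.09 (q = 0.191). Casq1 lost its call without any 1 pool other than wild-type pools 1 and 4 (q up to 0.110), and Mybpc2 (q = 0.0531) and Actn3 (q = 0.0627) lost theirs without wild-type pool 3. Without wild-type pools 2 and 3 together Casq1 (q = 0.147), Mybpc2 (q = 0.127) and Actn3 (q = 0.123) were not called. All 3 also lost their calls in a single fit of all pools (q = 0.253, 0.480 and 0.474), Casq1 and Actn3 with the replicate block (q = 0.0573 and 0.0506), and Casq1 with the Benjamini-Hochberg adjustment (0.0632). At 17.5 d.p.c. all 12 differences were positive and none was called, while all 10 skeletal muscle markers (median 0.13) and 9 of 10 thick filament genes were positive too and all 8 liver markers were negative (median -1.08).

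Of 8 genes of developing sarcomeres and muscle, 3 were higher in MSTN-null at d35 and 5 were not called. Igf2, a growth factor abundant before birth, was at 11.5 (SD 0.116) in MSTN-null and 10.2 (SD 0.234) in wild-type (difference 1.31, q = 1.65e-05). Mybph, a myosin-binding protein, differed by 1.18 (q = 4.86e-04) and Actc1, the cardiac actin that embryonic skeletal muscle also uses, by 0.34 (q = 0.0125). Without wild-type pools 2 and 3 together the difference of Actc1 was 0.27 and its call was lost (q = 0.0886). The atrial and embryonic light chain Myl4 differed by -0.05 (q = 0.510).

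**Figure D5:**
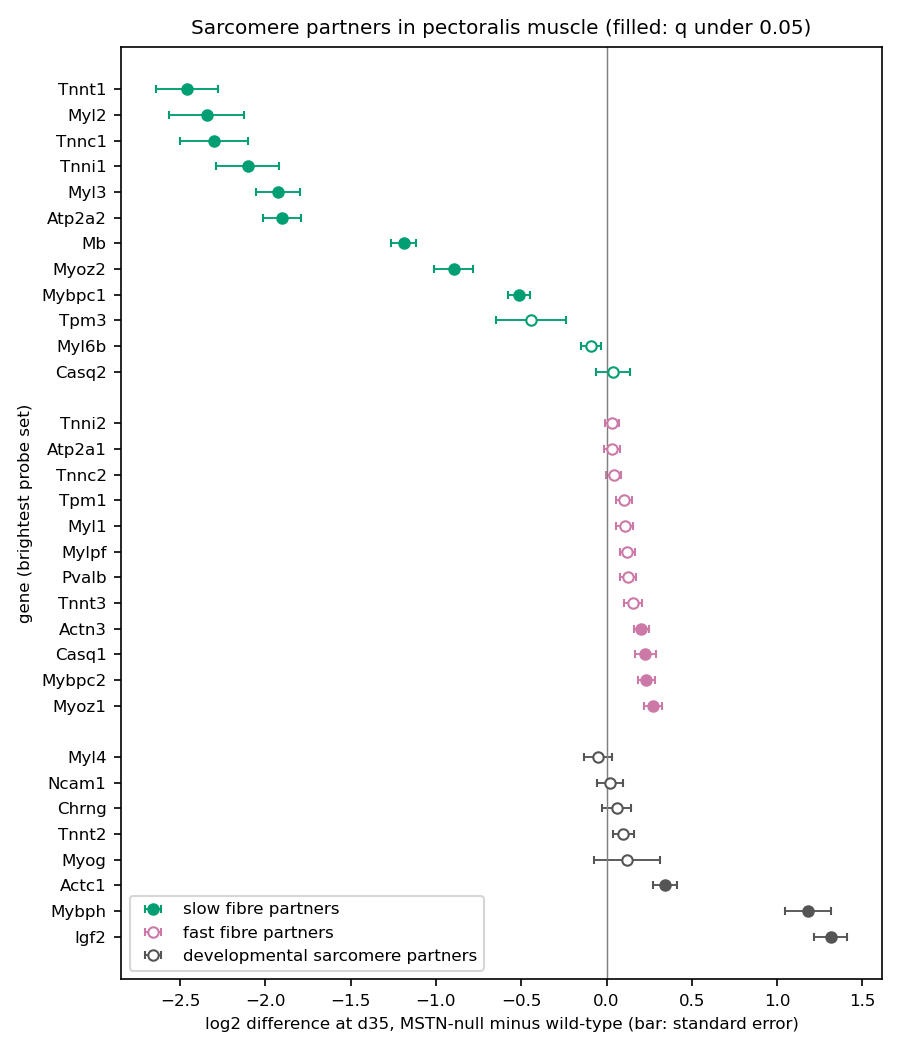
Difference of MSTN-null minus wild-type at d35 on the log2 scale (horizontal axis), with its standard error, for the brightest probe set of each slow (green), fast (pink) and developmental (grey) partner gene, filled where q was under 0.05. Of the slow partners 9 of 12 lie below 0 and are filled, and the 4 filled fast partners lie between 0.20 and 0.27.

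Genes that build the thick filament and its M-band had 2 of 10 higher, 1 lower and 7 not called at d35. Smyd1, a muscle methyltransferase that takes part in thick filament assembly, differed by 0.62 (q = 0.0329) and Trim54, a ubiquitin ligase of the sarcomere, by 0.33 (q = 0.0299), while Myom3, an M-band protein, was lower by -0.59 (q = 0.00259). Smyd1 lost its call without any 1 pool other than wild-type pools 1 and 4 (q up to 0.100), and Trim54 without MSTN-null pool 1, 3, 4 or 5 or wild-type pool 1, 2 or 3 (q up to 0.0960). Without wild-type pools 2 and 3 together Smyd1 differed by 0.42 and Trim54 by 0.22 (q = 0.197 for each). The call of Smyd1 was also lost with the Benjamini-Hochberg adjustment (0.0511) and with limma's trend and robust options (q = 0.0665), and that of Trim54 in a single fit of all pools (q = 0.0692).

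Of 15 regulators of the choice of myosin gene, 2 were higher and 2 lower in MSTN-null at d35 and 11 were not called. Over all probe sets, 2.08% were called higher and 2.50% lower. Eya4, a transcription cofactor of homeobox factors, differed by 0.56 (q = 0.00486), and Tbx15, a T-box factor, by 0.41 (q = 0.00406). Vgll2, a cofactor of the TEAD proteins, was lower by -0.47 (q = 0.00490) and Tead1, one of these proteins, by -0.36 (q = 0.00565). Sox6, a repressor of slow genes in fetal muscle, differed by 0.19 (q = 0.0825). At 13.5 d.p.c., Prox1, a homeobox factor of slow muscle, of the liver and of the nervous system, was the 1 called, lower by -0.31 (q = 0.0177), and its call was lost without MSTN-null pool 4 (q = 0.0587) or 5 (q = 0.0564) or wild-type pool 1 (q = 0.0668) and in a single fit of all pools (q = 0.240). Over all probe sets, 0.513% were called lower at 13.5 d.p.c.

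Of the other myosin II heavy chains, 5 were measured. Myh10, a non-muscle chain, was lower at d35 by -0.42 (q = 8.92e-04) and Myh11, the smooth muscle chain, by -0.32 (q = 0.0261). The call of Myh11 was lost without MSTN-null pool 1, 2 or 4 or wild-type pool 1 or 3 (q up to 0.0878), without wild-type pools 2 and 3 together (q = 0.115) and in a single fit of all pools (q = 0.0610). Myh7b, a slow-type relative of Myh7, differed by -0.10 (q = 0.274), and Myh9 by -0.39 (q = 0.130). None was called before birth.

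The genes most like each chain over the 10 pools at d35 were found by Pearson's r of the deviations from the genotype mean, among 18192 other genes. For Myh7 they were Prr36 (r = 0.993), Tnnc1 (r = 0.989) and Taf1a (r = 0.970). For Myh2 they were Chst14 (r = 0.973), Cacna2d2 (r = 0.956) and Agtrap (r = 0.953), and for Myh1 Gdpd1 (r = 0.953), Skint10 (r = 0.939) and Ackr4 (r = 0.938). Tnnc1 was the only one of these 9 that is on a list used here. Dmbx1, Mfn1 and Lims2 were the most like Myh4 (r = 0.957, 0.957 and 0.956), Anks4b, Dhx38 and A530058N18Rik the most like Myh3 (r = 0.974, 0.963 and 0.929), and Zdhhc23, Trpt1 and Wdr77 the most like Myh8 (r = 0.971, 0.964 and 0.956). The points are 10 pools of 1 time point, and these are the highest of all the values of r computed for each chain.

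The labelled tissue was checked by markers. The skeletal muscle markers averaged 11.7 to 11.9 in MSTN-null and 11.6 to 11.8 in wild-type pectoralis, with 1 of 10 called at d35, Chrna1, the acetylcholine receptor subunit (0.35, q = 0.0144). Over all probe sets 4.58% were called at d35, and with 1 probe set per gene 1348 of 18193 were. Adipocyte markers were lower in MSTN-null pectoralis at 2 of 5 genes, with mean levels of 8.57, 9.20, 9.01, 8.83 and 9.49 in MSTN-null and 9.42 to 9.69 in wild-type pools. Fabp4, which binds fatty acids, differed by -0.40 (q = 0.0301) and Cidec, a lipid droplet protein, by -0.98 (q = 0.0144). Wild-type pools 2 and 3 had the highest mean levels, at 9.60 and 9.69, against 9.55 in pool 1 and 9.42 in pools 4 and 5. Their arrays also correlated least with the others of d35, with a median r of 0.9859 and 0.9923 on the A chip and 0.9895 and 0.9933 on the B chip. Without wild-type pools 2 and 3 the difference of Myh7 was -2.69 and that of Myh2 -0.93, and both were called. The same setting ended the calls of Myh8, Myh1 (_x probe set), Myhas, Actc1, Casq1, Mybpc2, Actn3, Smyd1, Trim54 and Myh11. The part of the adipocyte markers, or of the lower array correlations, in the other values was not tested.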

How the data were processed

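RNA was hybridised to Affymetrix MOE430A and MOE430B arrays, 60 arrays for 30 pools. The authors deposited log2 intensities after RMA, which corrects background, equalises the arrays' distributions and summarises the probes of a set. Array medians matched within a time point and chip and differed between time points, so genotypes were compared only within a time point. Genes were named by the platform annotation, where 34945 of 45037 probe sets name 1 gene, 932 several and 9160 none. No probe set was named for Mstn, so the check of the targeted gene was not analysed here. Differences were fitted with limma 3.58.1 in R 4.3.3 (lmFit, eBayes) at each time point, with Storey q-values, and differences between time points in a fit of all 30 pools. That fit, also used as the single-fit alternative, shares 1 estimate of spread over the time points. A gene with several probe sets on a list was read by its brightest. The fit was tested on simulated data. Up to 4 called genes per list and 3 genes per chain by likeness were named. The members and lists were chosen with earlier results of these data known. The number of arrays limits precision. Alternatives were another q adjustment, chips apart, dim probe sets left out, quantile normalization, median centring, limma's trend and robust options, a single fit, a replicate block, 1 probe set per gene and left-out pools.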

Additional observations from a re-analysis of the deposited data

Results flagged for a closer look

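Of 78 groups of 5 pools checked for a pool far from the others, 1 had such a pool, where chance alone would give about 5% of groups. It was MSTN-null pool 3 at d35 in the dimmer probe set shared by Myh7 and Myh6, at 5.56 where the other MSTN-null pools lay at 5.28 to 5.36.

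A genotype difference that itself changed between time points was seen in 7 tests. From 17.5 d.p.c. to d35 these were Myh7 (-2.11, q = 2.16e-05), the brighter probe set of Myh7 and Myh6 (-1.70, q = 3.51e-05) and Myh2 (-0.64, q = 0.0355). From 13.5 d.p.c. to d35 they were Myh7 (-2.67, q = 2.34e-07), the same shared probe set (-2.12, q = 6.00e-07), Myh2 (-0.93, q = 9.18e-04) and the B chip probe set of Myh4 (0.60, q = 0.00703).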

How the results depend on the processing

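The calls at d35 of Myh7, Myh2, both probe sets of Myh7 with Myh6 and the B chip probe set of Myh4 were kept in all alternatives that tested them. Myh7 and Myh2 were tested in 20. The brighter shared probe set and the B chip probe set of Myh4 were tested in 19, and the dimmer shared one in 18. The 243 calls at 13.5 d.p.c. became 159 with the Benjamini-Hochberg adjustment, 148 after median centring, 14 of the 18193 tested with 1 probe set per gene and 0 in a single fit, and without 1 pool they ranged from 1 to 479. The 1 heavy chain call became 0 with the Benjamini-Hochberg adjustment, after median centring, in a single fit and after quantile normalization, and 0 to 1 without 1 pool. Its probe set was not among those tested without dim probe sets or with 1 probe set per gene, so these 2 settings cannot say whether the call holds. At 17.5 d.p.c. the single fit gave 14 calls and left-out pools 0. At d35 the 2062 calls of 45037 became 1324 (Benjamini-Hochberg) and 638 (without wild-type pools 2 and 3), and 777 to 2003 without 1 pool, with 6 to 7 heavy chain calls. With 1 probe set per gene, fewer were tested, and 1348 of 18193 were called, among them 4 of 7 heavy chains. The share of calls higher in MSTN-null was 45.4%, and 36.4% without wild-type pools 2 and 3. Quantile normalization gave 1 call for the change from embryos to hindquarters, and the mean of probe sets gave a shift of -0.49 for Myh1 minus Myh4 at d35. The sign turned after quantile normalization for the brighter shared probe set of Myh7 and Myh6 at 13.5 d.p.c. (0.0061) and for the change of Myh1 (_x probe set) from embryos to hindquarters (0.0168). It turned without 1 pool, at 13.5 d.p.c., for that shared probe set (-0.0411 to 0.0133) and Myh4 on the B chip (-0.0675 to 0.0196). At 17.5 d.p.c. it did so for Myh8 (-0.00757 to 0.21), Myh3 (-0.13 to 0.00378), Myh1 (_x, -0.031 to 0.58; the one with neither suffix, -0.0836 to 0.0793), the brighter Myh6 probe set (-0.0708 to 0.24) and Myhas (-0.0645 to 0.14), and at d35 for Myh3 (-0.0318 to 0.0313) and the Myh1 probe set with neither suffix (-0.17 to 0.0248). None of these was called. The cause was not tested. The labels tie same-numbered pools by number alone. Their deviations correlated at -0.10 to 0.08 at 13.5 d.p.c. and -0.17 to 0.14 at d35. At 17.5 d.p.c. pools 1, 3 and 5 correlated at 0.30, 0.39 and 0.48, each best with its own number, and pools 2 and 4 at -0.20 and -0.07, a hint from the data and not the design. With the replicate block 204, 0 and 1854 probe sets were called, with 1, 0 and 6 heavy chain calls.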
